A study of Mus musculus with 3 samples.

Results

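Acute phase genes encode secreted proteins whose amount shifts in inflammation, and 9 of the 32285 genes in the count files are described here by brain cell class: Cp, Saa1, Saa2, Saa3, Lcn2, Lrg1, Serpina3n, Itih3 and Hp. Liver cells make most acute phase proteins in response to cytokines of the interleukin families, which act through JAK and STAT proteins, NF-kB and C/EBP factors. In the injured brain, Serpina3n and Lcn2 are known from reactive glia and vessel cells, and Lcn2 and Hp are also proteins of neutrophil granules.

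Single-cell RNA counts were made from live cells sorted from the brains of male C57BL6J mice of genotype WT, aged 10 to 12 weeks per the study's methods. One group was naive, and the others were taken 24 h or 3 d after TIA (transient ischemic attack), a 5 min filament occlusion of the middle cerebral artery. The TIA tissue was the hemisphere on the occluded side without white matter and meninges, and the treatment label of these samples reads post stroke. Cells of 3 mice were pooled before each library was made, so each group had 1 library, the animals of a pool cannot be told apart, and a difference between groups cannot be told apart from a difference between libraries. The naive library served as control for both times, no test across groups was possible, and every interval given covers counting error only, at 95%. No library came from sham-operated mice, so effects of anesthesia and surgery cannot be told apart from those of the occlusion.

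The naive library held 4804 cells and 37987228 UMIs (unique molecular identifiers, each marking 1 captured transcript), the 24 h library 1619 cells and 12919691 UMIs, and the 3 d library 5505 cells and 48636436 UMIs. Cells with at least 500 detected genes and at most 7% mitochondrial UMIs were kept, which left 4018, 1225 and 4781 cells at median depths of 7750, 8123 and 7868 UMIs. Of the kept cells, the naive library shared 2 barcodes with the 24 h library and 7 with the 3 d library, and the TIA libraries shared 2.

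Clusters were named from marker genes, and 6 classes held 50 or more cells in each library. In the naive, 24 h and 3 d libraries there were 894, 239 and 1427 astrocytes, 232, 72 and 250 oligodendrocytes, and 314, 236 and 624 endothelial cells. The other classes were pericytes (159, 182 and 328 cells), microglia (1026, 284 and 1275) and neuroblasts (766, 109 and 362). Every class had UMIs of all markers of its own list in every library, 8 of 8 in pericytes and 10 of 10 in the other classes. The pericyte cluster also held 6, 6 and 7 of 7 smooth muscle markers, summing to 1129, 1267 and 866 CPM (counts per 1000000 UMIs of the class), with Mylk the most abundant and Cnn1 at 0 in the naive and 24 h libraries. It held 5, 5 and 7 of 8 fibroblast markers at 499, 543 and 494 CPM, led by Col1a2, Slc6a13 and Igf2, with Lum and Col1a1 at 0 in the naive and 24 h libraries and Slc47a1 at 0 in all 3, against 28996, 27569 and 25338 CPM of pericyte markers. The part of these other mural and fibroblast cells in the pericyte values was not tested. Of the 9 members, 6 were among the 2000 variable genes used for clustering.

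A change was called when the sums of a class in both libraries held at least 30 UMIs of a gene together and its CPM differed at least 2-fold. Vessel cells and glia held all calls. Lcn2 rose in endothelial cells at both times and Lrg1 at 24 h, Cp rose in pericytes at 24 h, and Serpina3n rose in astrocytes and oligodendrocytes at both times. Itih3 fell in oligodendrocytes at 24 h and rose in endothelial cells and microglia at 3 d. In endothelial cells, 2 of 3 members with enough UMIs rose at 24 h and 2 of 3 at 3 d, where 6.96% and 5.87% of all genes with enough UMIs changed in either direction. Pericytes had 1 of 3 at 24 h, against 5.42% of all genes, and 0 of 3 at 3 d, against 7.83%. In astrocytes 1 of 2 members rose at 24 h and 1 of 3 at 3 d, against 9.32% and 2.68% of all genes. Oligodendrocytes had 1 member higher and 1 lower of 3 at 24 h, against 10.5%, and 1 of 3 higher at 3 d, against 5.81%. Microglia had 0 of 1 at 24 h and 1 of 2 at 3 d, against 5.29% and 2.75%, and neuroblasts had no member with enough UMIs at 24 h, where 11.1% of all genes changed, and 0 of 1 at 3 d, where 2.74% did.

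**Figure D1:**
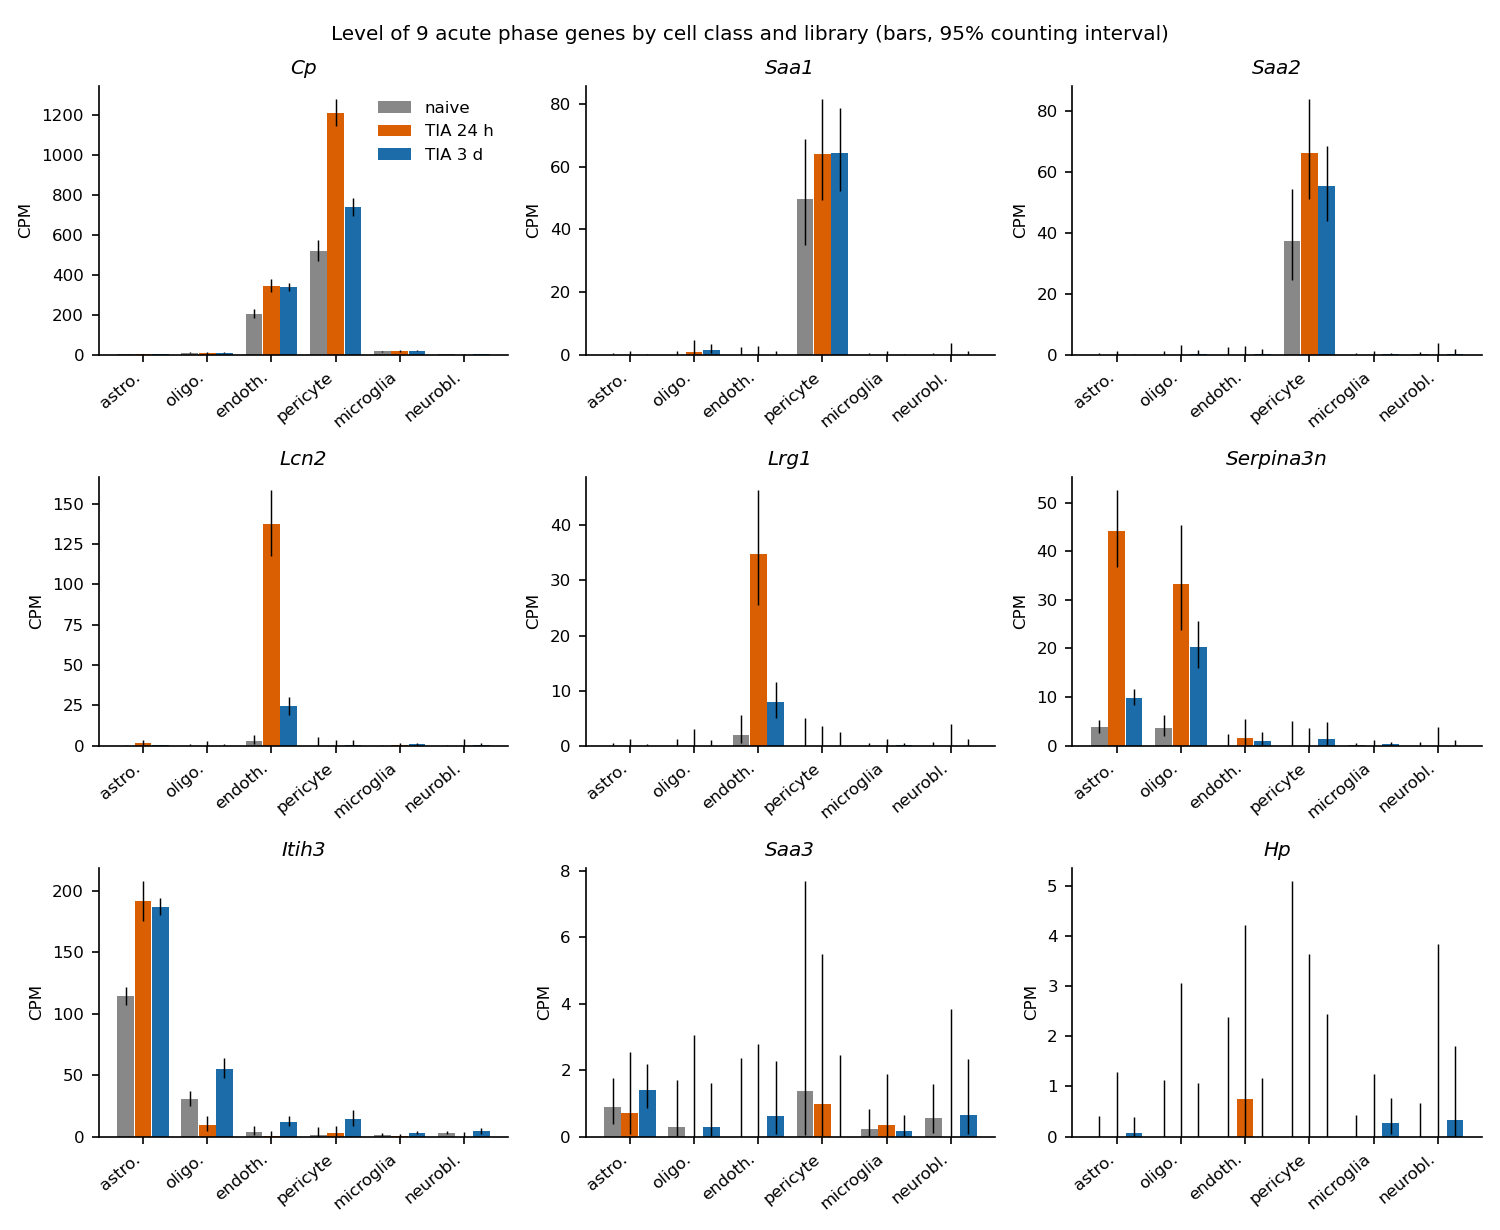
Bars give the CPM of each gene in 6 cell classes in the naive, 24 h and 3 d libraries, each 1 pool of 3 mice, with 95% counting intervals, on a linear axis of its own for each gene. Pericytes lead for Cp, Saa1 and Saa2, endothelial cells for Lcn2 and Lrg1, and astrocytes for Itih3.

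Cp (ENSMUSG00000003617, chr3:19957054-20009145 on GRCm38) encodes ceruloplasmin, the copper-carrying ferroxidase that lets iron leave cells. Its level in pericytes was 521 CPM (95% interval 470 to 576) in the naive library, 1212 CPM (1145 to 1282) at 24 h and 740 CPM (697 to 784) at 3 d. The 24 h library was the highest and its interval was clear of both others. This was a rise of 1.22 on the log2 scale at 24 h (1.05 to 1.39), while the ratio at 3 d was 0.51 (0.34 to 0.68), short of 2-fold. Among the 4, 9 and 9 pericytes with at most 1 UMI of markers of other classes, the ratio at 24 h was 0.71 on 6 and 24 UMIs, short of 2-fold. Among pericytes, 76.7%, 94.0% and 85.4% held a Cp UMI, and with every cell thinned to 2000 UMIs the shares were 57.6%, 86.1% and 70.2%. In astrocytes, with little Cp and a median depth of 9334, 11495 and 9307 UMIs against 4294, 5275 and 3914 in pericytes, the shares were 2.35%, 1.67% and 2.17%. The pericytes with at least 5 Cp UMIs numbered 27 of 159, 115 of 182 and 87 of 328, so the 24 h level was spread over most cells of the class.

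Endothelial cells were second for Cp among the 6 classes, with 203 CPM (181 to 227), 346 CPM (315 to 379) and 339 CPM (319 to 360) in the naive, 24 h and 3 d libraries. Both TIA libraries were above the naive one, by 0.77 (0.56 to 0.98) and 0.74 (0.56 to 0.93) on the log2 scale, short of 2-fold. In the 9, 17 and 21 endothelial cells with at most 1 UMI of markers of other classes, the ratios were 2.13 and 1.36, on 2, 20 and 12 UMIs, too few for a call. All 8 pericyte markers were detected in endothelial cells, at 238, 238 and 141 CPM in sum with Rgs5 the most abundant. Per 1000 UMIs of those markers there were 851, 1455 and 2409 Cp UMIs in endothelial cells and 18.0, 44.0 and 29.2 in pericytes. Microglia came next with 16.0 CPM (13.5 to 18.9), 19.3 CPM (14.6 to 25.0) and 18.2 CPM (15.8 to 20.8), and their log2 ratios of 0.27 (-0.20 to 0.72) and 0.18 (-0.14 to 0.50) had intervals that held 0. Oligodendrocytes had 8.81, 5.83 and 9.19 CPM, astrocytes 2.70, 1.40 and 2.62 CPM, and neuroblasts 3.46, 0 and 2.90 CPM. Neighbours in this order did not overlap in their intervals down to oligodendrocytes, while astrocytes and neuroblasts overlapped each other in every library and oligodendrocytes at 24 h. Outside the 6 classes, the 9, 2 and 11 fibroblasts held 72, 22 and 129 Cp UMIs, which is 1031, 1544 and 1734 CPM.

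Saa1 (ENSMUSG00000074115, chr7:46740497-46742980) and Saa2 (ENSMUSG00000057465, chr7:46751790-46754313) encode serum amyloid A proteins, which travel on high-density lipoprotein in the acute phase. Both were found almost only in pericytes, which held 94.7%, 97.0% and 93.3% of the Saa1 UMIs of the naive, 24 h and 3 d libraries and 93.1%, 100% and 94.3% of the Saa2 UMIs. In naive pericytes Saa1 had 36 UMIs, at 24 h 65 and at 3 d 97, which gave 49.7 CPM (34.8 to 68.9), 64.1 CPM (49.4 to 81.6) and 64.4 CPM (52.2 to 78.6). The 3 intervals overlapped, and the log2 ratios of 0.36 (-0.24 to 0.99) and 0.37 (-0.19 to 0.97) both held 0. Saa2 had 27, 67 and 83 UMIs, or 37.3 CPM (24.6 to 54.3), 66.0 CPM (51.2 to 83.8) and 55.1 CPM (43.9 to 68.3). Its log2 ratio was 0.82 (0.16 to 1.53) at 24 h and 0.56 (-0.08 to 1.25) at 3 d, neither past 2-fold. Every other class had at most 5 UMIs of either gene, and the 5 Saa1 UMIs of oligodendrocytes at 3 d were in 1 cell. The pericytes with at most 1 UMI of markers of other classes held 2, 2 and 0 Saa1 and 0, 1 and 1 Saa2 UMIs, too few for a ratio.

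A Saa1 UMI was found in 15.7%, 23.1% and 20.4% of pericytes and a Saa2 UMI in 14.5%, 21.4% and 19.2%. Of 1026 naive microglia, at a median depth of 7856 UMIs, 0 held a Saa1 UMI, so the share of such cells with a UMI could be up to 0.359% (Clopper-Pearson), which sets no limit on cells whose RNA was not captured. The most Saa1 UMIs in any pericyte were 4, 4 and 7, so these genes were low in each cell. Pericytes with Saa2 held Saa1 in 30.4%, 28.2% and 22.2% of cells, and pericytes without Saa2 in 13.2%, 21.7% and 20.0%, at median depths of 4010, 5730 and 4042 against 4393, 5089 and 3902 UMIs. Their longest coding transcripts were identical at 572 of 606 aligned bases (94.4%) and their gene bodies lay 8809 bases apart. Summed over both genes, a sum chosen after their values were seen, pericytes had 87.0, 130 and 120 CPM, with log2 ratios of 0.58 (0.14 to 1.04) and 0.46 (0.04 to 0.89).

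Promoter windows of 250 bases before to 50 after the RefSeq gene start were taken on GRCm38.p6, which matched 8 of the 9 members, all but Hp. The Saa1 and Saa2 windows are printed because both genes had the same source class, and the windows were identical at 287 of 299 aligned bases (96.0%). They lie at chr7:46742931-46743230 on the minus strand and chr7:46751583-46751882 on the plus strand, and capitals mark the letters TTGCNNAA, a core of C/EBP binding, searched on both strands.
Saa1: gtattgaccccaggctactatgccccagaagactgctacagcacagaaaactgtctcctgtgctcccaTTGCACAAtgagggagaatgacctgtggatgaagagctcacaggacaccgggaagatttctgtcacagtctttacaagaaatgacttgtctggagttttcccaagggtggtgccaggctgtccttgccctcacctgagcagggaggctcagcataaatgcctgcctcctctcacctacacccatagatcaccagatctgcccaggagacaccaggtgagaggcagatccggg
Saa2: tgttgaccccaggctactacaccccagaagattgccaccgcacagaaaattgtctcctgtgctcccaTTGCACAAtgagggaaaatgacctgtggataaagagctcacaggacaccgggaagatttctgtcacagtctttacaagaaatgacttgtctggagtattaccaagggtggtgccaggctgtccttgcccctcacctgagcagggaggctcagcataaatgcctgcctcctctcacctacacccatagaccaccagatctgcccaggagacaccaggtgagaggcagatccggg
The marked letters begin at base -182 of Saa1 and base -183 of Saa2, counted from the RefSeq start, which for Saa2 lies 43 bases inside the gene body given above. They were also in the windows of Lcn2 and Saa3 and in 1 of 2 windows of Cp, in none of Itih3, Lrg1 and Serpina3n, and in 10.8% of 32851 promoters. The letters TTCNNNGAA, a STAT core, were in 0 member windows and in 8.30% of all promoters, and no match of the C/EBP letters overlapped one. A match is only a description of the letters.

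Saa3 (ENSMUSG00000040026, chr7:46711998-46715700), an amyloid A gene known from macrophages and fat cells, had 18, 9 and 64 UMIs in the 3 libraries. No class reached more than 1.42 CPM, the astrocyte level at 3 d, where 20 UMIs lay in 20 cells, and neighbours in the order of classes overlapped. A single barcode held 35 of the 64 UMIs at 3 d and another 5 of the 9 at 24 h. The 3 d barcode had 15773 UMIs in all, with 18 of Ly6c2, a gene of circulating monocytes, and 0 of P2ry12, a microglia gene, and the 24 h barcode had 16959 UMIs with 136 of F13a1, a macrophage gene. These barcodes and their genes were chosen after their values were seen, and neither lay in the 6 classes. The 3 d barcode was also among those counted by neutrophil markers, described with Hp.

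Lcn2 (ENSMUSG00000026822, chr2:32384633-32388252) encodes lipocalin 2, which binds iron-carrying siderophores of bacteria. In endothelial cells it had 4, 181 and 77 UMIs, or 2.58 CPM (0.702 to 6.60) in the naive library, 137 CPM (118 to 159) at 24 h and 24.3 CPM (19.1 to 30.3) at 3 d. Lcn2 thus rose by 5.73 on the log2 scale at 24 h (4.35 to 7.62) and by 3.23 at 3 d (1.82 to 5.15), and the 3 d level was lower than that at 24 h by a log2 ratio of -2.50 (-2.90 to -2.11). Endothelial cells with an Lcn2 UMI made up 1.27%, 12.3% and 5.13% of the class, or 4 of 314, 29 of 236 and 32 of 624 cells. In microglia the shares were 0%, 0.352% and 0.627% at median depths of 7856, 9448 and 7828 UMIs, against 4627, 5645 and 4331 in endothelial cells. A few cells held most UMIs, with 76.2% at 24 h and 50.7% at 3 d in the 5 highest cells and 51 UMIs in 1 cell at 24 h. Without the 5 highest cells of each library, which leaves no naive UMI since the 4 there were in 4 cells, the log2 ratio was at least 4.10 at 24 h and 2.62 at 3 d, with the naive library set to 3 UMIs. The 9, 17 and 21 endothelial cells with at most 1 UMI of markers of other classes held 0, 18 and 0 Lcn2 UMIs, too few for a call at either time, and at 3 d no class held any under that filter.

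Astrocytes, which are often named as an Lcn2 source in brain inflammation, held 0, 4 and 3 UMIs. Microglia had 0, 1 and 8 UMIs, pericytes 0, 0 and 1, neuroblasts 0, 0 and 1, and oligodendrocytes 0 in all 3 libraries, so these classes overlapped at each time. The naive endothelial interval also overlapped those of oligodendrocytes and pericytes. At 24 h endothelial cells held 96.8% of all Lcn2 UMIs of the library. At 3 d they held 5.44% of 1416 UMIs, since barcodes outside the 6 classes, described with Hp, held most of the rest.

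Lrg1 (ENSMUSG00000037095, chr17:56119678-56122001) encodes a leucine-rich glycoprotein that modulates TGF-beta signalling in vessels. In endothelial cells it had 3, 46 and 25 UMIs, or 1.93 CPM (0.399 to 5.65), 34.8 CPM (25.5 to 46.5) and 7.88 CPM (5.10 to 11.6). The rise at 24 h was 4.17 on the log2 scale (2.53 to 6.50), and at 3 d, with fewer than 30 UMIs in both sums together, the ratio was 2.03 (0.31 to 4.40). Few cells were behind these sums: 1, 8 and 13 endothelial cells held a UMI, and 1 cell at 24 h held 25 of the 46. Without the 5 highest cells of each library, too few UMIs were left for a ratio at 24 h, and the ratio at 3 d was at least 0.68. The endothelial cells with at most 1 UMI of markers of other classes held 0, 25 and 0 Lrg1 UMIs, too few for a call, and the 25 were those of the 1 highest cell. The other 5 classes held 0 Lrg1 UMIs at each time apart from 1 UMI in microglia at 3 d, and their intervals overlapped the endothelial one in the naive library.

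Lcn2 and Lrg1 shared some endothelial cells. At 24 h, 6 of 8 cells with Lrg1 held Lcn2 (75.0%), against 10.1% of cells without Lrg1, at median depths of 7772 and 5590 UMIs. At 3 d, 7 of 13 did (53.8%), against 4.09%, at 5486 and 4316 UMIs. Lcn2 was also in 17.3% of endothelial cells with Cp and 5.15% of those without at 24 h, at 6266 and 4012 UMIs, and in 7.98% and 1.47% at 3 d, at 4621 and 3835 UMIs. These pairs were chosen after their values were seen, and the part of depth was not tested. Because both genes rose in endothelial cells, their promoters are shown, at chr2:32387690-32387989 and chr17:56121897-56122196, both on the minus strand, with the same letters in capitals.
Lcn2: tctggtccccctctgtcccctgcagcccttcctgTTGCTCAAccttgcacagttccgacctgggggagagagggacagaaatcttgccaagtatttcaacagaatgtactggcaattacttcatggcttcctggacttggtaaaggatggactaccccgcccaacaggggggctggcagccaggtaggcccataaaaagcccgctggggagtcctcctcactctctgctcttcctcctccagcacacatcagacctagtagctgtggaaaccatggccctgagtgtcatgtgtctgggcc
Lrg1: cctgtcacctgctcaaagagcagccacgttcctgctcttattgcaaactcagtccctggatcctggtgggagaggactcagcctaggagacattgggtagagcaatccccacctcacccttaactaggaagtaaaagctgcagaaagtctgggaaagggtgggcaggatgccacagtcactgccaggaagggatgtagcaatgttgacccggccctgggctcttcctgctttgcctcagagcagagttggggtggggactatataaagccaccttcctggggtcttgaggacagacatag
In the Lcn2 window the marked letters begin at base -216, and the Lrg1 window has none. The RefSeq starts used here lie 513 bases inside the gene body given above for Lcn2, so that its whole window is within that body, and 55 bases inside that of Lrg1.

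Hp (ENSMUSG00000031722, chr8:109575128-109579172) encodes haptoglobin, which binds free hemoglobin. It had 7, 19 and 209 UMIs in the 3 libraries, and the 6 classes held 0, 1 and 5 of them in sum. All but these lay in 1 unnamed cluster of 61, 22 and 107 cells that carried markers of several immune types, with 7, 18 and 204 Hp UMIs. At this depth none of the 6 classes could be given as a source of Hp.

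The 12 neutrophil markers were used to look for neutrophils among these cells. Within the unnamed cluster, the sub-cluster with the most S100a8 and S100a9 UMIs, 2 neutrophil protein genes, had 39, 17 and 50 cells. Its S100a8 UMIs numbered 964, all in 1 cell, in the naive library, 2 at 24 h and 14000 at 3 d. It held 100%, 94.7% and 97.6% of the Hp UMIs and 66.7%, 0.535% and 93.4% of the Lcn2 UMIs. By the naming rule it matched 10 neutrophil markers, but also 9 microglia and 8 border macrophage markers, and 21, 2 and 36 of its cells held at least 20 UMIs of P2ry12, so its cells are not called neutrophils here. A stricter count of barcodes with at least 4 of the 12 markers gave 1, 1 and 13, all of them kept cells and none called a doublet. Across the libraries 184 kept cells had 2 markers and 11 had 3, just outside this limit, and 2 had 4, just inside.

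The 13 barcodes at 3 d held 189 Hp UMIs (90.4% of the library), 1322 Lcn2 UMIs (93.4%), 62 Lrg1 UMIs (67.4%) and 13994 S100a8 UMIs (99.2%). Their median depth was 90947 UMIs, against 7868 in the library, and their median P2ry12 was 193 UMIs against 17 in microglia. Their microglia markers had a median sum of 1534 UMIs against 168, so genes of both cell types were counted under the same barcodes, and the cause was not tested. Of the 13, 11 had at least 20 P2ry12 UMIs and held 1209 of the Lcn2 and 173 of the Hp UMIs. One barcode had S100a8 and no P2ry12 UMI, with 1862 S100a8, 188 Ngp, 309 Camp, 151 Ltf, 113 Lcn2, 10 Hp and 9 Lrg1 UMIs among 11406 in all. Ngp, Camp and Ltf are neutrophil granule genes, and this barcode was chosen after its values were seen. The barcode with 35 Saa3 UMIs was also among the 13, with 4 of the 12 markers, 0 S100a8, 0 S100a9 and 6 Hp UMIs.

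Among 10 barcodes with at least 100 S100a8 UMIs at 3 d, Hp ranged from 10 to 33 UMIs and Lcn2 from 0 to 458. Those with Ltf, a gene of neutrophil secondary granules, numbered 6 and had 44 to 458 Lcn2 UMIs each, 1120 in all, and the 4 without Ltf had 0 to 111, 202 in all. This split was made after the values were seen. In the naive library the 1 barcode past the limit held all 7 Hp UMIs and 8 of 12 Lcn2 UMIs, with 964 S100a8 and 59 P2ry12 UMIs. At 24 h the 1 barcode had 3923 UMIs, 17 of S100a9, 2 of Hp and 1 of Lcn2, while 16 of the 19 Hp UMIs were in another barcode with 2 of the 12 markers.

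Lcn2 was also set beside the neutrophil genes in each class. At 3 d there were 2852 Lcn2 UMIs per 1000 UMIs of S100a8 and S100a9 in endothelial cells (77 and 27 UMIs) and 47.6 in the 13 barcodes, while astrocytes, with 3 Lcn2 UMIs, were at 46.2 and microglia, with 8, at 114. In the naive and 24 h libraries endothelial cells had 0 UMIs of S100a8 and of S100a9. Of the 12 neutrophil markers they held 2, 3 and 7, at 11.6, 3.03 and 31.8 CPM in sum with Csf3r the most abundant, a gene that microglia also held at 403, 402 and 436 CPM. The part of neutrophil RNA in the endothelial Lcn2 values was not tested.

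**Figure D2:**
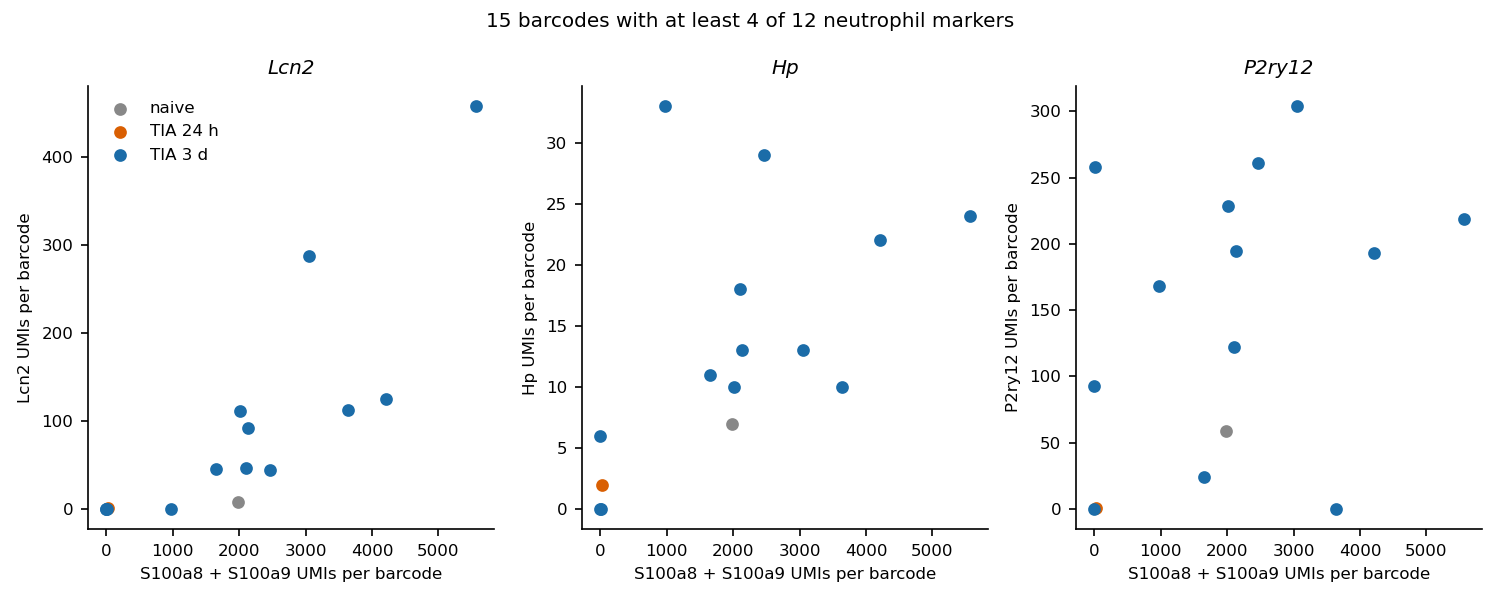
Each point is 1 of the 15 barcodes with at least 4 of 12 neutrophil markers, with its UMIs of S100a8 and S100a9 on the x axis and of Lcn2, Hp or P2ry12 on the y axis, coloured by library. Of the 13 barcodes at 3 d, 11 hold at least 20 UMIs of P2ry12, a microglia gene.

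Serpina3n (ENSMUSG00000021091, chr12:104406729-104414329) encodes an inhibitor of serine proteases. In astrocytes it had 3.82 CPM (2.65 to 5.34) in the naive library, 44.2 CPM (36.8 to 52.6) at 24 h and 9.85 CPM (8.28 to 11.6) at 3 d. The 24 h level stood clear of both others, with a rise of 3.53 on the log2 scale (2.98 to 4.12), and the rise at 3 d was 1.37 (0.82 to 1.95), or 0.92 and short of 2-fold at clustering resolution 0.2. Oligodendrocytes had 3.65 CPM (1.88 to 6.37), 33.3 CPM (23.8 to 45.3) and 20.4 CPM (15.9 to 25.7), with rises of 3.19 (2.23 to 4.26) and 2.48 (1.59 to 3.50). These 2 classes overlapped in the naive and 24 h libraries, and oligodendrocytes were higher at 3 d, with intervals that did not overlap. This order at 3 d rested on few cells, since 1 oligodendrocyte held 25 of the 71 UMIs. Without the highest cell of each class and library it was 13.3 CPM (9.71 to 17.7) against 8.65 CPM (7.18 to 10.3) in astrocytes, and without the 5 highest 8.26 CPM (5.49 to 11.9) against 6.32 CPM (5.08 to 7.78), with overlapping intervals, and these levels were added after seeing the data. The other 4 classes had 0 to 3 UMIs in each library, with overlapping intervals.

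Few cells carried Serpina3n. A UMI was found in 3.36%, 14.2% and 5.54% of astrocytes and in 4.74%, 15.3% and 12% of oligodendrocytes, against 0.0975%, 0% and 0.235% of microglia, at median depths of 9334, 11495 and 9307, of 13417, 16151 and 12901, and of 7856, 9448 and 7828 UMIs. The 5 highest cells held 59.5% of the UMIs in astrocytes and 85.0% in oligodendrocytes at 24 h, and 36.0% and 60.6% at 3 d. Without them the log2 ratio at 24 h was 2.70 in astrocytes and 1.55 in oligodendrocytes, the latter on 6 UMIs in each library and too few for a call, and at 3 d 1.16 and 2.14. In cells with at most 1 UMI of markers of other classes, 0, 2 and 1 UMIs were left in astrocytes and 0, 1 and 3 in oligodendrocytes, too few for a ratio. Astrocyte markers in oligodendrocytes summed to 478, 225 and 732 CPM, and per 1000 UMIs of them there were 7.62, 148 and 27.8 Serpina3n UMIs, against 0.194, 2.18 and 0.482 in astrocytes. Among the 3 astrocyte clusters, numbered 2, 4 and 10, the log2 ratio at 24 h was 2.81, 4.55 and 2.73, the last on 8 and 14 UMIs and too few for a call, and at 3 d 0.43, 0.98 and 2.69, so at 3 d cluster 10 stood past 2-fold, with 69.4 CPM. The values per astrocyte cluster, here and for Itih3, were chosen after the levels were seen.

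Itih3 (ENSMUSG00000006522, chr14:30908572-30923760) encodes a heavy chain of the inter-alpha-trypsin inhibitor family, which is linked to hyaluronan in the matrix. Astrocytes were its main class, with 114 CPM (107 to 121) in the naive library, 191 CPM (175 to 208) at 24 h and 187 CPM (180 to 194) at 3 d, or 84.2%, 96.1% and 87.9% of all its UMIs. Both TIA libraries were above the naive one by 0.74 (0.59 to 0.90) and 0.71 (0.61 to 0.82) on the log2 scale, short of 2-fold. Without the 5 highest cells the ratio at 24 h was 0.46. In the 20, 12 and 64 astrocytes with at most 1 UMI of markers of other classes, on 12, 11 and 153 UMIs, the ratio was 0.27 at 24 h, with too few UMIs for a call, and 1.94 at 3 d, past 2-fold. A UMI was found in 46.5%, 62.3% and 65.0% of astrocytes, and in 0.975%, 0.352% and 2.27% of microglia, at the depths given for Serpina3n. Itih3 was among the 10 leading genes of astrocyte cluster 10, whose level of 652, 1198 and 850 CPM stood apart from 64.2, 131 and 145 CPM in cluster 2 and 66.1, 106 and 120 CPM in cluster 4. Within clusters 2, 4 and 10 the log2 ratios were 1.03, 0.68 and 0.88 at 24 h and 1.18, 0.86 and 0.38 at 3 d.

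Among the 6 classes, oligodendrocytes were second for Itih3 in every library, with 30.7 CPM (25.0 to 37.3), 9.16 CPM (4.57 to 16.4) and 55.1 CPM (47.6 to 63.5). At 24 h their level fell by 1.74 on the log2 scale (-2.79 to -0.84), on 101 and 11 UMIs. At 3 d the ratio was 0.85 (0.49 to 1.21), short of 2-fold, and it was 0.19 with doublets left out and 0.27 without the 5 highest cells. One oligodendrocyte barcode at 3 d held 34 Itih3 UMIs among 33690 in all. The astrocyte markers in this class moved the same way, at 478, 225 and 732 CPM, and Itih3 per 1000 UMIs of them was 64.1, 40.7 and 75.3, against 5.79, 9.45 and 9.15 in astrocytes. The share of astrocyte RNA in the oligodendrocyte values was not tested. Outside the 6 classes, an unnamed cluster of 71, 18 and 65 cells held 27, 4 and 41 Itih3 UMIs, or 49.4 CPM (32.5 to 71.8), 21.3 CPM (5.81 to 54.6) and 86.3 CPM (61.9 to 117), with astrocyte markers at 7086, 6466 and 11469 CPM, led by Slc1a2 with Aqp4 at 0 at 24 h.

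The other classes had little Itih3. Endothelial cells had 6, 1 and 38 UMIs, with a rise of 1.63 at 3 d (0.38 to 3.16), microglia had 13, 1 and 36, with a rise of 1.09 (0.14 to 2.13), and pericytes had 1, 3 and 21, too few for a call. In all 3 classes astrocyte markers were also highest at 3 d, at 1108, 665 and 1786 CPM in endothelial cells, 389, 436 and 525 in microglia, and 1422, 826 and 2482 in pericytes. Itih3 per 1000 of these UMIs at 3 d was 6.70, 6.08 and 5.62, against 9.15 in astrocytes, and the part of astrocyte RNA in these values was not tested. Among endothelial cells, pericytes, microglia and neuroblasts, neighbours overlapped in the naive and 24 h libraries, and at 24 h pericytes also overlapped oligodendrocytes. At 3 d pericytes and endothelial cells overlapped each other and stood above neuroblasts and microglia, which also overlapped.

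**Figure D3:**
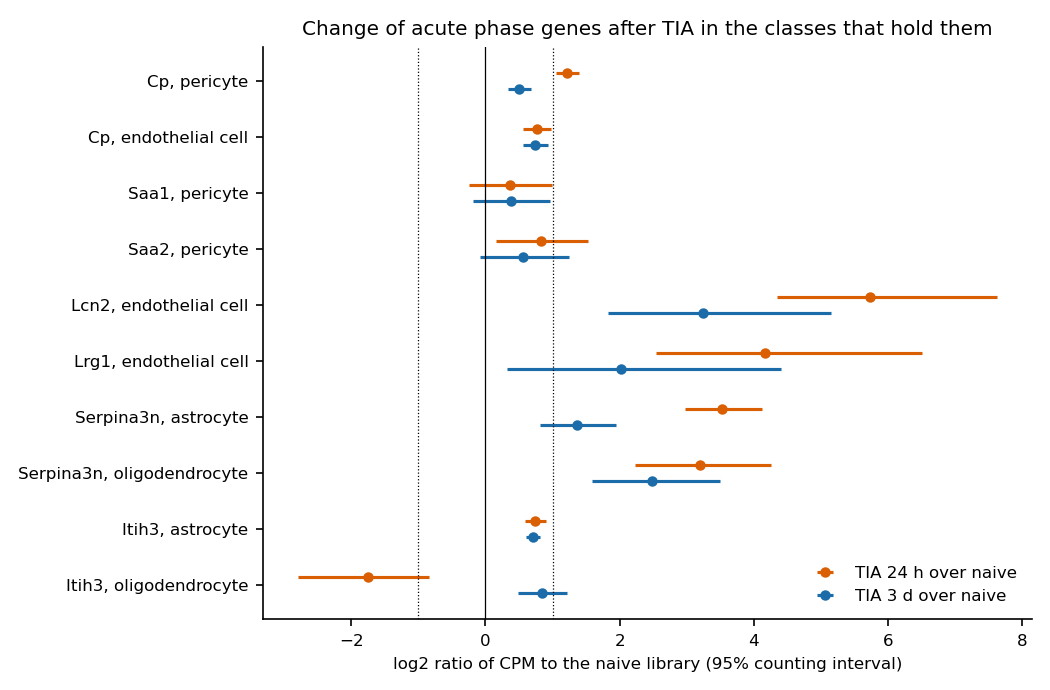
Points give the log2 ratio of CPM in each TIA library to the naive library for 7 members in their leading classes, and for Cp and Itih3 also in the second class, with 95% counting intervals, and dotted lines mark 2-fold. Lcn2 and Lrg1 in endothelial cells and Serpina3n in astrocytes and oligodendrocytes lie farthest to the right at 24 h, between 3.19 and 5.73.

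Genes around the members were followed in 8 lists. Over the 6 classes, the members had 5 of 12 pairs of gene and class higher and 1 lower at 24 h, and 5 of 15 higher at 3 d. Among all genes 2.52% of 61656 pairs were higher and 5.70% lower at 24 h, and 3.12% and 1.22% of 68678 at 3 d. Paralogs of the members had 1 of 5 pairs higher at 24 h and 2 of 7 at 3 d, and other positive acute phase proteins had 7 of 12 higher and 2 lower at 24 h and 4 of 14 higher at 3 d. For negative acute phase proteins, which drop in plasma in inflammation, 3 of 8 pairs were lower at 24 h, and 1 of 9 was lower and 1 higher at 3 d. The 3 lower at 24 h were Ttr in astrocytes, Trf in endothelial cells, on 39 and 12 UMIs, and 1 gene in neuroblasts. The part of RNA of other classes in these 3 was not tested. Cytokine ligands had 1 of 17 higher and 2 lower at 24 h and 5 of 25 higher at 3 d, and their receptors with the glucocorticoid receptor had 6 of 51 higher and 6 lower, then 3 of 58 higher. Signal transducers, transcription factors and feedback inhibitors had 9 of 87 higher and 4 lower, then 9 of 96 higher. Receptors, partners and substrates of the members had 1 of 57 higher and 7 lower, then 4 of 65 higher, and neutrophil granule genes had 1 of 5 higher and 1 lower, then 2 of 6 higher and 1 lower. The lowest and highest class medians of these lists were -2.34 and 2.39 at 24 h and -0.76 and 2.72 at 3 d, against -0.04 to 0.05 and 0.02 to 0.09 over all genes. Of these medians, -2.34 in neuroblasts and 2.39 and 2.72 in oligodendrocytes each rest on 1 gene with enough UMIs and -0.76 in neuroblasts on 2 genes.

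Cebpd, a transcription factor known to act on acute phase genes, rose in endothelial cells and pericytes, and its link to the members was not tested. It had 67.7, 351 and 277 CPM in endothelial cells, a rise of 2.38 (2.07 to 2.70) and 2.03 (1.74 to 2.34), and 155, 573 and 390 CPM in pericytes, a rise of 1.89 (1.59 to 2.19) and 1.34 (1.04 to 1.64). In astrocytes it rose by 1.76 (1.46 to 2.07) at 24 h and its ratio at 3 d was 0.97, in oligodendrocytes it rose by 1.38 and 1.43, and in microglia the ratios were 0.15 and 0.11. Osmr, the receptor of oncostatin M, rose at 24 h in astrocytes by 2.29 (1.81 to 2.78), in endothelial cells by 1.13 and in pericytes by 1.11, with ratios of -0.02, 0.85 and 0.57 at 3 d. Il1r1, the interleukin receptor, rose in endothelial cells at 24 h by 1.24 (0.89 to 1.60), and its ratio at 3 d was 0.59, while in microglia it rose by 1.05 (0.07 to 2.01) at 24 h. Stat3 stayed short of 2-fold in every class, with 0.97 in astrocytes at 24 h, 0.72 and 0.94 in endothelial cells and 0.88 and 0.61 in pericytes. Cebpb rose in astrocytes at 24 h by 1.13 and in oligodendrocytes at 3 d by 1.70, the latter on 7 and 24 UMIs. Naive microglia held Cebpb at 162 CPM, and the part of microglia RNA in these Cebpb values was not tested.

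Socs3, a feedback inhibitor of STAT signalling, fell in astrocytes at 24 h, with a ratio of -1.14 (-2.34 to -0.13), and rose by 1.98 in pericytes and 2.20 in oligodendrocytes at 3 d. Il6ra, the interleukin receptor chain, had -1.44 in astrocytes at 24 h and rose by 2.91 in pericytes at 3 d. In neuroblasts at 24 h both were past 2-fold lower, Socs3 at -1.60 (-3.92 to 0.03) and Il6ra at -1.57 (-3.90 to 0.06), on 3 UMIs each against 52 and 51, with intervals that held 0. Microglia held both genes at 162 and 342 CPM in the naive library, and all 10 microglia markers were detected in these classes. They summed to 820, 331 and 568 CPM in astrocytes, 456, 314 and 1192 in pericytes and 448, 424 and 662 in oligodendrocytes, and their part in these values was not tested. Il6st, Lifr and Nr3c1 stayed short of 2-fold in 5 classes, all but neuroblasts, where at 24 h Il6st had 3 UMIs against 77, Lifr 5 against 86 and Nr3c1 12 against 139. Markers of some other classes were also lower in neuroblasts at 24 h than in the naive library, with astrocyte markers at 309 and 1228 CPM (8 and 10 of 10 detected, led by Slc4a4 and Slc1a2, Aqp4 and Fgfr3 at 0) and microglia markers at 167 and 699 CPM (9 and 10 of 10, Fcrls at 0). The same held for endothelial markers at 13.6 and 123 CPM (8 and 10 of 10, led by Ly6c1 and Cldn5, Cdh5 and Tek at 0) and pericyte markers at 11.5 and 58.2 CPM (4 and 8 of 8, led by Rgs5 and Vtn, Pdgfrb, Abcc9, Higd1b and Ndufa4l2 at 0). The part of RNA of other classes in the neuroblast values was not tested.

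Among the other list genes with the highest ratios, Hmox1, which breaks down heme, rose by 3.13 and A2m, a protease inhibitor, by 2.18 in astrocytes at 24 h. C4b, a complement gene, rose by 1.22 in astrocytes at 3 d and by 2.39 and 2.72 in oligodendrocytes, where Nfkbia, the NF-kB inhibitor, rose by 3.48 and 2.19 and Itih5, a paralog of Itih3, by 1.81 at 24 h. Serping1, the inhibitor of complement C1, rose by 1.36 in pericytes at 24 h, and Tgfbr1 by 2.06 there at 3 d. In endothelial cells at 3 d Pim1 rose by 1.04 and Cntfr by 1.75. Microglia showed rises of Tnf by 2.06 and Cybb by 1.55 at 24 h, and of Il1b by 1.15, Cybb by 1.60 and Ttr by 2.57 at 3 d. The Ttr level in microglia was low, at 0.807 CPM in the naive library and 4.78 CPM at 3 d, on 7 and 54 UMIs. Among the lowest ratios in astrocytes, Ttr, the thyroid hormone carrier, had 160, 2.46 and 3.12 CPM, Cd14 had a ratio of -3.19 at 24 h and Il1a at most -2.88. Naive microglia had 228 CPM of Cd14, 222 of Il1a and 2151 of Tgfbr1, and the part of the microglia RNA given above for astrocytes and pericytes was not tested for these genes either. Jak1 had -1.41 in oligodendrocytes and Trf -1.47 in endothelial cells at 24 h, and in neuroblasts Tgfbr2 had -3.65 and Lyz2 -3.16 at 24 h and -1.85 at 3 d. The choroid plexus and ependymal markers in astrocytes, 7, 5 and 7 of 9 detected with Rarres2 the most abundant, summed to 50.8, 50.2 and 48.5 CPM. Ttr is not among these markers, and the part of choroid plexus RNA in the Ttr values of astrocytes and microglia was not tested.

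Over the 18 sums of class and library, the genes most like each member were named by Pearson's r among 8194 genes, as a description of points that share libraries and depth. Nearest to Cp were Arhgap29, Sav1 and Pear1 (0.98 each). For Saa1, Gm13470 and Gm36823 were among them (0.99 each), and for Saa2 Gm13470 (1.00), Gprc5c and Gm36823 (0.99). Lcn2 was most like Scgb3a1 (0.96), Doc2b (0.94) and Xdh (0.91), and Xdh, xanthine dehydrogenase, had 132, 526 and 331 CPM in endothelial cells. Serpina3n was nearest to Gpt (0.92), Lin52 (0.91) and Pla2g3 (0.89), and Itih3 to Ttyh1, Fam228b and Paqr8 (0.94 each). Saa3, Hp and Lrg1 had too few UMIs for this measure.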

How the data were processed

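The authors deposited raw UMI counts per gene and cell for 3 single-cell libraries, made with 10x Genomics 3′ chemistry and Cell Ranger (7.1.0 per the file headers, 3.1.0 per the labels) on mm10, without normalization. The members and all lists were chosen with earlier results of these data known. Kept cells were log-normalized, 2000 variable genes were chosen, UMI number and mitochondrial share were regressed out, and cells were clustered on 20 components at resolution 0.5 (Seurat 5.3.0, R 4.3.3). A cluster was named by at least 3 markers found in at least 10% of its cells and 2-fold above other clusters. UMIs were summed per class and library and scaled to CPM, with exact Poisson intervals, conditional binomial intervals for ratios (scipy 1.17.1) and a floor of 3 UMIs for a library at 0. Doublets were called with Scrublet (scanpy 1.11.5). Genes named were the 9 members, the 3 highest and 3 lowest list genes past 2-fold with at least 50 UMIs in each class and time, Il6ra, Il6st, Osmr, Lifr, Il1r1, Nr3c1, Stat3, Socs3, Cebpb and Cebpd, and the 3 genes most like each member. Some genes that this rule names are not reported here. Gene positions are from GENCODE M21. The 8 lists were paralogs, other positive and negative acute phase proteins, cytokine ligands, receptors, signalling genes, partners of the members and neutrophil granule genes. The interval functions were tested on simulated data.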

Additional observations from a re-analysis of the deposited data

Results flagged for a closer look

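The change of Itih3 had opposite signs in astrocytes and oligodendrocytes at 24 h, and in oligodendrocytes also at the 2 times. At 24 h its log2 ratio to the naive library was 0.74 in astrocytes and -1.74 in oligodendrocytes, and at 3 d it was 0.71 in astrocytes and 0.85 in oligodendrocytes, with all 4 intervals clear of 0. In astrocytes the 0.74 became 0.46 without the 5 highest cells and 0.27, on too few UMIs for a call, in cells with at most 1 UMI of markers of other classes, where the 0.71 became 1.94, past 2-fold. The 0.85 became 0.19 without doublets and 0.27 without the 5 highest cells. Astrocyte markers in oligodendrocytes were at 478, 225 and 732 CPM in the naive, 24 h and 3 d libraries, and their part was not tested. These differences were not tested, since each group had 1 library. The rule that picks results of opposite sign was widened after the values were seen.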

How the results depend on the processing

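No paired analysis was possible because each group had 1 library. The 20 log2 ratios of members in their leading classes, and in the second class for Itih3 and Cp, were recomputed with the literal reading of the cell filter, without doublets, at resolutions 0.2 and 1, without regression, without the members among the clustering genes, with the median ratio of genes as scale, without mitochondrial and hemoglobin UMIs, without the 5 cells with the most UMIs, and with only those cells in which markers of other classes had at most 1 UMI. The ratios of Itih3 in oligodendrocytes and of Cp in endothelial cells, which led in no library, were added after seeing the data, as were some settings for the counts and the leading class, among them the filter on other markers. Of 187 values, 5 were bounds from the floor of 3 UMIs, which do not tell if the ratio left its interval, and of the other 182, 171 were within the interval of the main value, 11 moved and 0 reversed. Without the 5 cells with the most UMIs, the ratio at 24 h was 2.70 for Serpina3n in astrocytes, 1.55 in oligodendrocytes (under 30 UMIs), 0.46 for Itih3 in astrocytes and at least 4.10 for Lcn2, and at 3 d it was 0.27 for Itih3 in oligodendrocytes. Without doublets that last ratio was 0.19. With at most 1 UMI of other markers, which left 4 to 78 cells per class and library, ratios at 24 h were 0.27 for Itih3 in astrocytes, at least 1.39 for Lcn2, at least 1.86 for Lrg1, and 0.71 for Cp in pericytes and 2.13 in endothelial cells, and at 3 d 1.94 for Itih3, 0.0104 for Cp in pericytes and 1.36 in endothelial cells, with at least 30 UMIs only for Cp in pericytes at 24 h and Itih3 at 3 d. Too few UMIs were left there for Saa1, Saa2, Serpina3n, Itih3 in oligodendrocytes, and Lcn2 and Lrg1 at 3 d, and for Lrg1 at 24 h without its 5 highest cells. The Lrg1 value at 24 h with the filter on other markers rested on 1 cell. The 5 pairs of member and class higher at 24 h became 0 with that cell filter, 8 at 1.5-fold and 3 at 100 UMIs, and the 1 lower became 0, 2 at 1.5-fold, 0 at 4-fold and 2 at 10 UMIs. The 5 higher at 3 d became 1 with that filter, 8 at 1.5-fold, 2 at 4-fold and 1 at 100 UMIs. The 1 with that filter was Itih3 in astrocytes. It was not among the 5, since it was short of 2-fold in the main analysis. The share of Hp UMIs at 3 d was 90.4% with the count of 4 markers per barcode, among kept and among all deposited cells, against 97.6% in the sub-cluster. Only 17 of the 27 pairs of member and library had 30 UMIs in the 6 classes. Their leading class was the same in 133 of 136 combinations with a setting, and the other 3, Serpina3n in the naive library and Saa1 and Lcn2 at 3 d with the filter on other markers, had 0 UMIs left. With that filter Serpina3n, Saa1 and Saa2 kept at most 4 UMIs in a library. The cause was not tested. The 24 h library, with 1225 kept cells, sets the depth that limits its comparisons, and genes under 30 UMIs could not be called.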

Other observations

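Outside the 6 classes, the unnamed cluster of mixed immune markers held 115, 68 and 109 Cp UMIs in the naive, 24 h and 3 d libraries, which is 69.2, 150 and 21.6 CPM. A Cp UMI was in 44.3%, 40.9% and 49.5% of its cells, at median depths of 21692, 14705 and 40721 UMIs. Another unnamed cluster of 71, 18 and 65 cells held 14, 1 and 5 Serpina3n UMIs, and the 14 of the naive library were in 2 cells.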
